A study of Homo sapiens with 8 samples.

Results

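CALM2 and CALM3 are 2 of the 62639 genes counted by long-read RNA sequencing in MOLM-13 cells, a human acute myeloid leukemia cell line, with and without knockdown (KD) of the splicing regulator PTBP1. Both genes were selected on measured values of these libraries, so their levels and isoform shares in this contrast are a description and carry no test. Their transcripts were taken as every annotated transcript of either gene in the count table: 27 were listed, 14 for CALM2 and 13 for CALM3, and 21 had a count in any library. All cells, controls included, carried a lentiviral construct that expressed its shRNA together with the ΔLNGFR receptor from a doxycycline (dox) inducible promoter, had mCherry in place of drug resistance, and received dox for 9 days. The shPTBP1 group (PTBP1 KD) and the scrambled control group, shSCR (shControl in the labels), had 4 libraries each, which the labels call biological replicates; nothing in the labels says whether these were separate cultures, so spreads between them may be technical. Each arm rested on 1 shRNA in 1 cell line.

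Calmodulin is a small, abundant calcium sensor. It binds calcium through EF-hand loops and, once loaded, switches on kinases, the phosphatase calcineurin, calcium pumps and cytoskeletal proteins. In the human genome separate genes make the same protein from transcripts that differ in their untranslated regions, and the length of the 3′ untranslated region (UTR) can affect where and how long a transcript is used. PTBP1 binds pyrimidine-rich RNA, including the motifs UCUU and CUCUCU, and is known for its effects on splice site choice and on 3′ end formation.

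The coding sequences showed how alike and how separable the genes were. CALM2 (ENSG00000143933, chr2:47160084-47176921, minus strand, hg38) and CALM3 (ENSG00000160014, chr19:46601074-46610782, plus strand, hg38) encode the same protein, with 149 of 149 residues identical, in coding sequences of 450 bases that differed at 82 positions, 79 of them the last base of a codon. The coding sequence of CALM2 was 39.1% G and C and that of CALM3 was 52.9%. The first 120 coding bases are shown because they let a reader see that long reads of the genes can be told apart; capitals mark the 21 bases that differ, all of them last bases of codons.
CALM2-201: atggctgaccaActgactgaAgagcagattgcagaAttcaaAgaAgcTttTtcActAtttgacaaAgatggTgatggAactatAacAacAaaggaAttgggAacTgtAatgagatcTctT
CALM3-201: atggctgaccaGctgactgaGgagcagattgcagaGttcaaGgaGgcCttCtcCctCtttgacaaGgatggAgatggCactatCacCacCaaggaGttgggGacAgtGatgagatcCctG

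The libraries held between 1528449 and 1613342 counts each and between 12322 and 12589 detected genes. PTBP1 itself had 10, 15, 13 and 23 counts in the shPTBP1 libraries and 65, 90, 64 and 78 in the shSCR libraries (log2 fold change −2.26, SE 0.22, edgeR quasi-likelihood adjusted p = 7.18e-05), in the direction of the labels in every library. PTBP2, a paralog known to be repressed by PTBP1, had 185 to 199 counts in shPTBP1 and 1 to 4 in shSCR. Of 9 myeloid leukemia markers 7 had counts in every library, with 838 to 1108 counts in sum; SPI1 and CD14 had 1 count each in all libraries together. By normalized CPM (counts scaled to the library total after normalization by trimmed mean of M values), CD33 was higher in all shPTBP1 libraries (86.4 ± 10.7 against 72.2 ± 3.92), while FLT3 (2.93 ± 0.89 against 5.56 ± 1.41) and CSF1R (7.28 ± 1.599 against 14.4 ± 2.35, SD, n = 4) were lower in all of them; the part of such differences in the values below was not tested. Of markers of other lineages, CD3E (T cells) and HBB (erythroid cells) had 0 counts in all libraries, EPCAM (epithelial cells) had 0 or 1 count per library and COL1A1 (fibroblasts) had 0 to 4.

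CALM2 was slightly more abundant after PTBP1 KD. Its normalized CPM was 2119, 2137, 2240 and 2182 in the shPTBP1 libraries and 1903, 1849, 2076 and 1912 in the shSCR libraries. All shPTBP1 libraries were above all shSCR libraries, and the gap between the groups was narrow. The means were 2169 ± 53.9 and 1935 ± 98.0 normalized CPM (SD, n = 4 each), a log2 fold change of 0.16 (SE 0.05, 95% interval 0.06 to 0.27), or 1.12-fold. Both genes were selected on this contrast, so this interval and that of CALM3 below describe the fit and carry no test. In the edgeR fit over 7597 genes 3.19% were called lower (242) and 2.36% higher (179) after PTBP1 KD, a balance that turned under DESeq2 (154 lower, 164 higher), and for 12.7% the normalized CPM of the groups did not overlap; since the genes were selected on this contrast, nothing is read from these shares for CALM2 or CALM3. In bulk RNA, fewer cells that express a gene and less of its RNA per cell cannot be told apart.

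The level of CALM3 differed between the groups by less than the spread between replicates. Its normalized CPM was 436, 446, 447 and 424 in shPTBP1 and 394, 486, 414 and 437 in shSCR. The shPTBP1 values lay inside the range of the shSCR values, whose spread was wider. The means were 438 ± 10.5 and 433 ± 39.8 normalized CPM (SD, n = 4 each), with a log2 fold change of 0.02 (SE 0.07, 95% interval −0.12 to 0.15). Leaving out single libraries moved this log2 fold change between −0.02 and 0.08. Among the tested genes, mean CPM placed CALM2 at the 99.1 percentile and CALM3 at the 94.9 percentile.

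The contribution of CALM3 to the sum of CALM2 and CALM3 depended on the scale. By counts, CALM3 made 17.1%, 17.3%, 16.6% and 16.3% of the sum in shPTBP1 and 17.1%, 20.8%, 16.6% and 18.6% in shSCR (16.8% ± 0.44 against 18.3% ± 1.88, SD, n = 4). These ranges overlapped, and the highest value came from shSCR replicate 2, with an exact 95% binomial interval of 19.5% to 22.2% (counting error only). When each transcript's count was divided by its annotated length, the share was 20.1% ± 0.44 in shPTBP1 and 18.3% ± 1.39 in shSCR, so the sign of the difference turned from −1.49 to 1.81 percentage points. Per length, the level of CALM2 was 1702 ± 42.9 in shPTBP1 and 1558 ± 56.1 in shSCR, and that of CALM3 was 429 ± 15.7 and 349 ± 22.8, all in counts per kilobase on the CPM scale. The length-divided level of CALM3 did not overlap between the groups although its counts did, because the counts of CALM3 moved to a shorter annotated transcript.

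**Figure D1:**
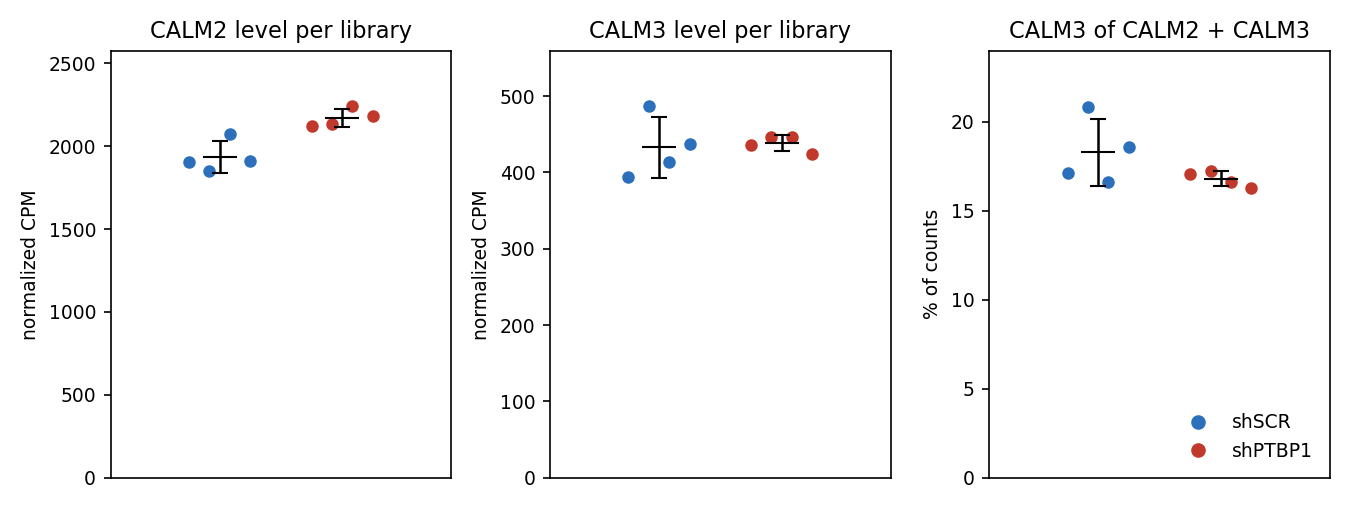
Levels of CALM2 and CALM3 in normalized CPM and the CALM3 percentage of the summed counts, 1 point per library, with the mean and SD of 4 libraries per group. CALM2 lies at 2118.8 or above in all shPTBP1 libraries and at 2076 or below in all shSCR libraries, while the values of CALM3 and its percentage overlap between the groups.

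The isoform makeup of CALM3 was where the groups lay furthest apart. CALM3-201 (ENST00000291295, the protein-coding reference transcript, 2184 bases) and CALM3-203 (ENST00000477244, 696 bases, annotated without a defined coding sequence) held nearly all CALM3 counts. CALM3-201 had 324, 303, 271 and 288 counts in the shPTBP1 libraries and 378, 524, 397 and 437 in the shSCR libraries. As a share of all CALM3 counts this was 47.0%, 44.9%, 39.9% and 43.4% in shPTBP1 against 59.0%, 68.6%, 63.9% and 64.2% in shSCR. No shPTBP1 library reached the lowest shSCR library, with a difference of the means of −20.1 percentage points (43.8% ± 2.99 against 63.9% ± 3.93, SD, n = 4). The exact 95% binomial interval of the highest shPTBP1 share ended at 50.8% and that of the lowest shSCR share began at 55.1%. These intervals cover counting error only. Across genes, squared count differences between replicates of a group were 2.12 to 3.94 times those of counting alone. The intervals are therefore too narrow for the spread between libraries, and nothing is drawn from their separation.

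CALM3-203 moved the other way. It had 353, 358, 390 and 351 counts in shPTBP1 and 255, 232, 208 and 238 in shSCR. Its share was 51.2%, 53.0%, 57.4% and 52.9% in shPTBP1 and 39.8%, 30.4%, 33.5% and 34.9% in shSCR, a difference of 19.01 points (53.7% ± 2.65 against 34.6% ± 3.92, SD, n = 4), and again the groups did not overlap. The isoform with the larger share thus differed: CALM3-201 in all 4 shSCR libraries and CALM3-203 in all 4 shPTBP1 libraries. On the level scale CALM3-201 was 192 ± 12.6 in shPTBP1 and 278 ± 42.3 normalized CPM in shSCR, and CALM3-203 was 235 ± 15.5 and 149 ± 7.76, so that the mean of the former fell by 85.8 and that of the latter was 86.4 normalized CPM higher. Both passed the rule for isoform calls, as did 1.12% of 5464 isoforms tested, and 10.7% of tested isoforms had shares that did not overlap between the groups; the members having been selected on this contrast, no support is taken from this.

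CALM3-202 (ENST00000391918), which starts at another first exon, was the only other CALM3 isoform with a mean share of at least 1% in either group. It had 10, 10, 11 and 17 counts in shPTBP1 and 6, 5, 13 and 5 in shSCR. These are small counts that overlap between the groups, with shares of 1.78% ± 0.53 and 1.10% ± 0.67 (SD, n = 4). The other 7 CALM3 transcripts with counts had at most 3 counts in any library, and 3 listed transcripts had none.

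**Figure D2:**
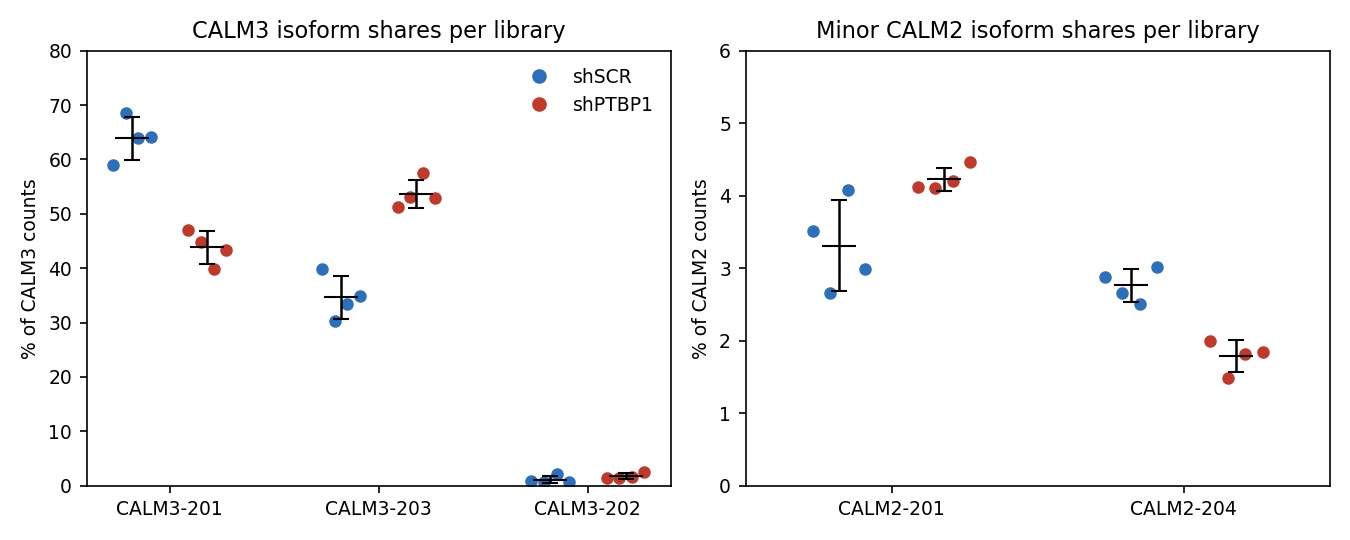
Isoform shares per library, in percent of the counts of the gene, for CALM3-201, CALM3-203 and CALM3-202 and for the minor CALM2 isoforms, with the mean and SD of 4 libraries per group. CALM3-201 lies at 58.97% or above in shSCR and at 47.02% or below in shPTBP1, CALM3-203 shows the opposite order, and CALM2-204 is higher in shSCR.

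CALM3-201 and CALM3-203 differ at 3 places. CALM3-203 starts 21 bases further upstream, uses an acceptor 2 bases later at the third exon, and ends at chr19:46609275, 1507 bases before CALM3-201 (chr19:46610782), inside the last exon, so that its last exon has 151 bases against 1658. The acceptors are shown because the later one removes 2 bases from the coding sequence; the capitals mark those bases, and the intron lies to their left (chr19:46608177-46608216, hg38, plus strand).
CALM3 exon 3 acceptors: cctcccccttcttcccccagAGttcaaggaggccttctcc
With the earlier acceptor the reading frame runs through 149 codons; with the later one, the frame from the same start codon stopped after 19 codons, 359 bases before the last junction, a position at which nonsense-mediated decay, the pathway that removes transcripts with early stop codons, is known to act.

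The annotation does not separate these differences. CALM3-203 was the only listed transcript with the later acceptor, and no listed CALM3 transcript combined the short 3′ end with the first exon of CALM3-201, 6 exons and the earlier acceptor. Reads of that kind would have no transcript of their own, and whether the counts of CALM3-203 came from the later acceptor, from the shorter 3′ end or from both was not tested, since the table holds counts per annotated transcript. The same transcript counts were also summed by annotated 3′ end. Transcripts ending within 50 bases of the distal site held 43.9% ± 2.97 of CALM3 counts in shPTBP1 and 64.1% ± 3.80 in shSCR. Those ending near the proximal site held 56.1% ± 2.97 and 35.9% ± 3.86 (SD, n = 4). These sums consist almost wholly of CALM3-201 and CALM3-203. They repeat the shares of these transcripts, and no read ends were counted. Of 7 listed transcripts with the proximal end 6 had counts, and of 2 with the distal end both did.

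**Figure D3:**
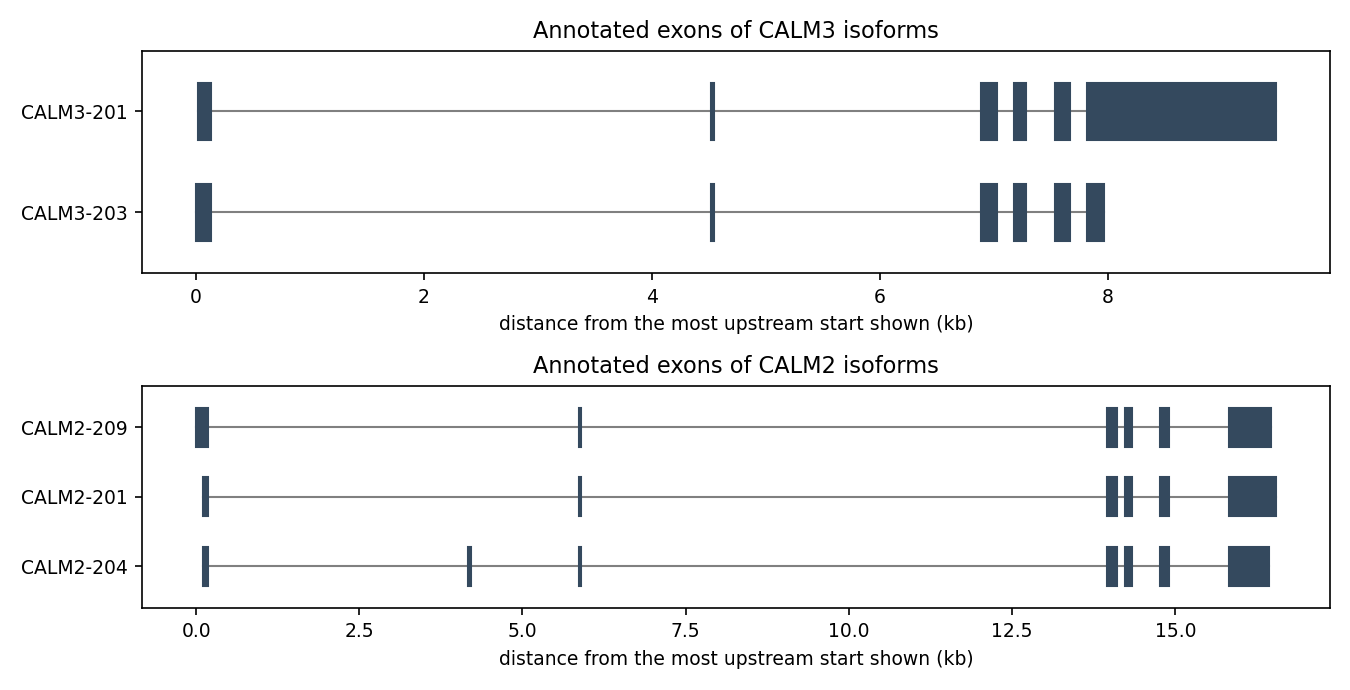
Annotated exons (boxes) and introns (lines) of the CALM3 and CALM2 isoforms described, drawn to scale in kilobases from the most upstream start shown, with transcription from left to right. CALM3-203 ends within the last exon of CALM3-201, and CALM2-204 has an exon of 46 bases that the other CALM2 isoforms drawn lack.

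The 3′ ends themselves are shown because CALM3 counts moved between transcripts annotated with different ends. The last 30 bases of each transcript are given with the polyadenylation signal AATAAA in capitals where it was found.
End of CALM3-201 (chr19:46610753-46610782): gttttccAATAAAatacagtgactacctga
End of CALM3-203 (chr19:46609246-46609275): tctagcaaacaccaattgattgactgagaa
End of CALM2-209 (chr2:47160164-47160193, minus strand): tttccAATAAAaaaattacaatttacccaa
End of CALM2-201 (chr2:47160084-47160113, minus strand): aAATAAAatatggcattggtttctgcttgg
The end of CALM3-203 held neither AATAAA nor ATTAAA in these bases, whereas the distal end of CALM3-201 and both CALM2 ends held AATAAA. Over 22519 annotated ends of transcripts with a mean of at least 1 count per library, 48.4% had AATAAA in the last 30 bases. Either signal was found in 60.8%. In the stretch of the last exon beyond the proximal end, AATAAA occurred 888 and 1485 bases downstream of that end, the latter being the signal of the distal end.

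The surroundings of the proximal CALM3 end were rich in pyrimidines. Within 100 bases on each side, 68.0% of bases were C or T, at the 99.9 percentile of the 22519 ends, and the motif CTCTCT (searched as DNA letters on the transcript strand, overlapping matches counted) occurred 5 times. At least 1 match was found near 6.70% of ends, and as many as 5 near 0.0488%. TCTT occurred 6 times, where 75.7% of ends had any match and 0.773% had as many. The window of 30 bases with the most matches lies 84 to 55 bases upstream of the end (chr19:46609191-46609220, plus strand), with capitals marking CTCTCT.
CALM3 proximal window: tCTCTCTCTtctcgcgcgcgcaCTCTCTCT
No match of either motif lay within 100 bases of the distal CALM3 end or of the CALM2 ends. Of the 20 bases that follow the proximal end in the genome 55.0% were A, against a median of 20% over the 22519 ends. Whether cDNA priming on this stretch added to the counts of CALM3-203 was not tested. The 60 intron bases before the third exon of CALM3 held 1 TCTT and no CTCTCT. Of 111576 acceptor windows of transcripts with a mean of at least 1 count per library, 54.4% and 6.69% held a match. A match describes these letters and is not a binding site.

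CALM3 was among the genes whose counts moved furthest from transcripts annotated with a distal end to transcripts annotated with a proximal one. End classes here are those of annotated transcripts, and whether the ends of the reads moved was not tested. Of 1332 genes with end classes at least 500 bases apart, each with at least 10% of counts and a mean of 20 counts per library, 737 had a lower distal share after PTBP1 KD and 595 a higher one, with a median change of −0.60 points (quartiles −4.44 to 3.00). The change of CALM3, −20.1 points, ranked 19 from the lowest. The distal share fell by 10 points or more in 137 genes and rose by as much in 79, and the groups did not overlap in 110 genes (8.26%). This is a description, since CALM3 was selected on the same values and these bounds were chosen after the structure of its isoforms was seen. The mean annotated length of all counted transcripts was 1817 to 1883 bases in shPTBP1 and 1833 to 1903 bases in shSCR, so the libraries overlapped in this measure.

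CALM2 kept its main isoform and moved only in minor ones. CALM2-209 (ENST00000652974) had 3122, 3035, 3186 and 3169 counts in shPTBP1 and 2888, 2727, 2891 and 2788 in shSCR, which was 93.4% ± 0.39 of CALM2 counts in shPTBP1 and 93.4% ± 0.44 in shSCR (SD, n = 4). It shares all splice junctions with the reference transcript CALM2-201 (ENST00000272298), starts 112 bases further upstream and ends 80 bases earlier. GENCODE annotates it as a target of nonsense-mediated decay, with 3 ATG triplets upstream of the calmodulin start codon, but its sequence holds the full frame of 149 codons. The coding sequence that GENCODE gives it is another one, of 111 bases.

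CALM2-201 had a larger share after PTBP1 KD. Its counts were 138, 133, 143 and 152 in shPTBP1 and 109, 77, 127 and 89 in shSCR, or 4.22% ± 0.16 and 3.31% ± 0.63 of CALM2 counts (SD, n = 4). The shares did not overlap, by a gap of less than 0.05 points between 4.11% and 4.08%. As a share of CALM2-201 plus CALM2-209 the groups overlapped, at 4.33% ± 0.17 and 3.42% ± 0.64.

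CALM2-204 (ENST00000456319) had a smaller share after PTBP1 KD. It had 67, 48, 62 and 63 counts in shPTBP1 and 89, 77, 78 and 90 in shSCR, that is 1.79% ± 0.22 and 2.76% ± 0.23 of CALM2 counts (SD, n = 4), and all shPTBP1 libraries were below all shSCR libraries. It has a cassette exon of 46 bases between the first and the next exon of CALM2-201 (chr2:47172414-47172459, hg38, minus strand), and it starts 5 bases further upstream and ends 96 bases earlier. With the cassette exon, the frame from the calmodulin start codon stopped after 17 codons. GENCODE annotates CALM2-204 as protein-coding all the same, with another coding sequence, of 339 bases, that begins in its exon 4. The intron in front of that exon is shown because it was searched for the same motifs, and capitals mark TCTT. Whether PTBP1 acts on this exon was not tested.
CALM2 intron before the 46-base exon (chr2:47172460-47172519, minus strand): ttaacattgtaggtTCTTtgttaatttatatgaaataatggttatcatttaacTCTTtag
This window held 2 TCTT matches and no CTCTCT, with 56.7% pyrimidines, near the median of 58.3% over the 111576 acceptor windows. Of those windows 54.4% held TCTT. The other 8 CALM2 transcripts with counts had at most 14 counts in any library.

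Overlapping genes and copies were assigned almost no counts of their own. A long noncoding RNA on the opposite strand of the distal CALM3 end (ENSG00000269292, chr19:46609277-46610779), a longer annotated gene that spans CALM2 (ENSG00000273269) and the processed pseudogenes CALM2P1, CALM2P2, CALM2P3 and CALM2P4 had 0 counts in all libraries, which allows up to 3 counts each, and PPP5D1P at the 5′ end of CALM3 had 1. Since it is not stated whether the counting used strand, reads of CALM3 and its antisense gene could not be told apart where they overlap.

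Among the targets and partners of calmodulin and other EF-hand genes, few were called. Of 114 listed genes (calmodulin-dependent kinases; calcineurin and NFAT; pumps, channels and cyclic nucleotide enzymes; scaffolds, motors and transcription factors; other EF-hand proteins) 39 were abundant enough to be tested. Of these, 3 were called lower (7.69%), against 3.19% of all tested genes, none was called higher, against 2.36%, and 7 had an unadjusted p under 0.05. DESeq2 called the same 3 genes and no more. Of the 3, MYL12A came from the list of other EF-hand proteins, which was not a list of calmodulin targets or partners. The groups did not overlap for 6 of the 39 (15.4%), against 12.7% of all genes. Their log2 fold changes ran from −1.07 to 1.03 with a median of −0.11, beside a median of −0.000141 over all genes tested.

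IQGAP1, a scaffold that binds calmodulin and actin, was lower after PTBP1 KD. Its normalized CPM was 84.8, 90.5, 96.8 and 81.3 in shPTBP1 and 133, 133, 109 and 146 in shSCR, without overlap (log2 fold change −0.56, SE 0.10, edgeR adjusted p = 0.00618). CAMTA1, a calmodulin-binding transcription activator, had 174, 199, 184 and 195 normalized CPM in shPTBP1 and 216, 279, 229 and 251 in shSCR (log2 fold change −0.38, SE 0.09, edgeR adjusted p = 0.0227). MYL12A, a regulatory light chain of nonmuscle myosin with EF-hands, had 1647, 1757, 1785 and 1793 normalized CPM in shPTBP1 and 2008, 2041, 2042 and 2060 in shSCR (log2 fold change −0.22, SE 0.05, edgeR adjusted p = 0.0193). All shPTBP1 values of CAMTA1 and MYL12A were below all shSCR values. IQGAP1 kept its call whichever library was left out. CAMTA1 lost its call without shPTBP1 replicate 1 or 3 or shSCR replicate 2 or 4 (edgeR adjusted p between 0.0529 and 0.0772), and MYL12A without shPTBP1 replicate 3 or shSCR replicate 4 (edgeR adjusted p 0.0595 and 0.0601).

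None of the other tested genes of these lists was called. Of 22 kinase genes 6 were tested, of which PHKG2, a catalytic subunit of phosphorylase kinase, had 46.8 ± 3.73 normalized CPM in shPTBP1 and 40.7 ± 5.36 in shSCR, and CAMK1 had 23.7 ± 5.13 and 29.5 ± 7.93. Of 13 genes of calcineurin and NFAT signalling 4 were tested, and PPP3CA, a catalytic subunit of calcineurin, had 18.8 ± 5.17 and 17.0 ± 4.48. RCAN3, a regulator of calcineurin, was at 47.4 to 60.1 in shPTBP1 and at 1.23 to 76.4 in shSCR, where replicate 1 stood far below the others. Of 28 genes of pumps, channels and cyclic nucleotide enzymes 5 were tested, and STIM1, the calcium sensor of the endoplasmic reticulum, had 46.03 ± 8.09 and 51.2 ± 11.8. ORAI1, the channel that STIM1 opens, was listed at 0 in shPTBP1 replicate 1 and shSCR replicate 2 and at 40.4 to 59.0 normalized CPM in the other libraries. Of 27 scaffolds, motors and transcription factors 13 were tested, including IQGAP1 and CAMTA1. Of 24 other EF-hand genes 11 were tested, and MYL6, the essential light chain of the same myosin as MYL12A, had 1519 ± 119.95 normalized CPM in shPTBP1 and 1677 ± 137.6 in shSCR, with overlapping ranges (SD, n = 4 for each value).

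**Figure D4:**
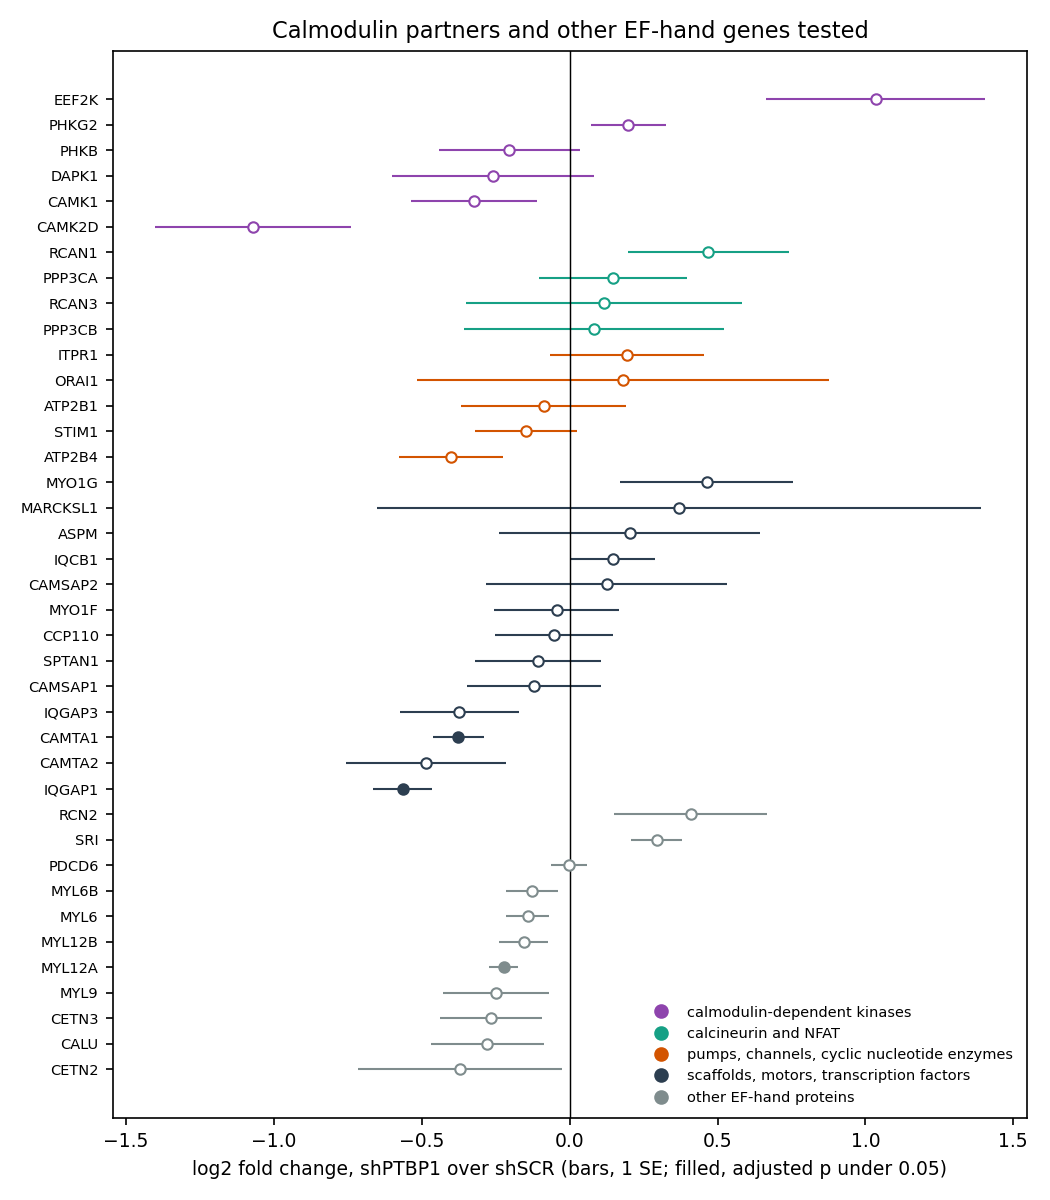
Log2 fold change of 39 tested genes of the calmodulin lists, shPTBP1 over shSCR, with bars of 1 SE from the edgeR fit and filled points for an adjusted p under 0.05. Only IQGAP1, CAMTA1 and MYL12A are filled, all left of 0.

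Across the 8 libraries the levels of CALM2 and CALM3 had a Pearson r of −0.10 (log2 CPM). Among 4802 genes with a mean of at least 20 CPM, those most like CALM2 were PSME2, a proteasome activator subunit (r = 0.98), TUBA1B, an alpha tubulin (0.98), and CTSC, the lysosomal protease cathepsin C (0.98), and those most opposite were KIF20A (−0.96), CHORDC1 (−0.95) and SNX7 (−0.95). Those most like CALM3 were CHAC1 (0.94), PIP4P1 (0.93) and PDCD2L (0.92), and those most opposite were STARD7 (−0.97), SYAP1 (−0.95) and SNRNP200 (−0.94). Over 5454 isoforms of other genes, the shares that followed that of CALM3-201 most closely were those of NCOA4-207 (r = 0.97), EIF4A2-203 (0.97) and SEH1L-201 (0.97). SEH1L-201, of a nucleoporin gene, made 60.9% ± 1.67 of its gene's counts in shPTBP1 and 93.3% ± 1.94 in shSCR (SD, n = 4), EIF4A2-203 made 17.3% ± 1.27 and 24.8% ± 1.94, and NCOA4-207 made 0.93% ± 0.30 and 5.23% ± 0.42. These correlations are a description over 8 libraries that share the split into groups, and high values are found by searching many genes.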

How the data were processed

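Nanopore cDNA libraries of 8 MOLM-13 samples were analysed. Per the labels and the methods of the study, the authors mapped reads to hg38 with minimap2, kept those of high mapping quality, and deposited whole-number counts per annotated transcript made with StringTie; versions and the annotation are not given in the sources used here. A table of normalized values holding the same data was not used. Transcripts were assigned to genes by identifier in GENCODE version 44, which held 252562 of 254070. Totals were 1528449 to 1613342 counts per library; binomial intervals and limits for a count of 0 cover counting error only.

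Gene sums were tested in edgeR 4.0.16 (R 4.3.3) by the quasi-likelihood test after TMM normalization and filterByExpr (minimum count 10), with the group as the only term and calls at a Benjamini-Hochberg adjusted p under 0.05 over all tested genes. Isoforms were tested with diffSpliceDGE, with a change of at least 10 percentage points. DESeq2 1.42.0 and limma 3.58.1 served as alternatives. Sequences were read from hg38. The members, the gene lists, the sequence windows and the analysis of 3′ ends were chosen with earlier results of these data known. Genes named are the members, the called genes and the 2 most abundant genes of each list, the genes and isoforms most like the members, and PTBP1 and PTBP2. 1 gene of the family is not reported here. Same-numbered libraries and leave-one-out fits were checked as alternatives.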

Additional observations from a re-analysis of the deposited data

Results flagged for a closer look

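Over 60 sets of 4 libraries, 2 had a library whose gap to the nearest of the others was large for the range of its group; chance alone gives about 1 in 20. CALM3-202 made 2.56% of CALM3 counts in shPTBP1 replicate 4 (17 counts) and 1.45% to 1.62% in the other shPTBP1 libraries (10 or 11 counts). ORAI1 was listed at 0 normalized CPM in shPTBP1 replicate 1, against 49.4 to 58.9 in the other shPTBP1 libraries, and was also at 0 in shSCR replicate 2.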

How the results depend on the processing

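The direction and the size of the CALM3 isoform shift held under most alternatives. The change of the CALM3-201 share was −18.5 to −21.7 points when single libraries were left out, and −2.56 points when only protein-coding isoforms entered the denominator, which leaves out CALM3-203. The change of the CALM2-204 share was −0.87 to −1.06 points without single libraries and −15.9 points among protein-coding isoforms, which leaves out CALM2-209. The difference in the CALM3 share of CALM2 plus CALM3 was −0.65 to −2.05 points without single libraries, 1.81 points by counts per kilobase and −10.04 points with protein-coding transcripts only. The log2 fold change of CALM2 was 0.14 to 0.20 and that of CALM3 −0.02 to 0.08 without single libraries. Called genes numbered 421 (242 lower, 179 higher), against 318 with DESeq2 (154 lower, 164 higher), 422 with DESeq2 size factors in edgeR, 495 without a filter on low counts, and 184 to 358 without single libraries, fewest without shPTBP1 replicate 3; of the listed genes 1 to 3 were called. Called isoforms numbered 61, against 154 with limma diffSplice, 28 with a minimum change of 20 points and 39 to 55 without single libraries.

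With the replicate number as a block (replicate block), 323 genes were called, 308 of them shared with the 421, and the same 3 listed genes. Deviations of same-numbered libraries had correlations of −0.03 to 0.01, so the numbers did not pair the libraries.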
